A study of Canis lupus familiaris with 18 samples.

Results

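The 171 genes described here are those whose transcript level peaked at the low dose of light in MDCKI cells carrying bPAC. They are 171 of 32220 gene IDs, and of the 5737 genes that reached a mean of 10 CPM in a bPAC group. CPM is a gene's read count scaled to a common library total, the standard unit of depth-corrected counts. MDCKI is an epithelial line from dog kidney, and bPAC is an adenylyl cyclase of bacterial origin whose activity blue light switches on. The members were chosen from the bPAC libraries alone. For each gene L was computed, the log2 ratio of mean CPM + 1 in lit over mean CPM + 1 in dark libraries. A member had an L of at least 0.8 in low light, an L between -0.3 and 0.3 in high light, and a mean of at least 10 CPM in a bPAC group. A set of IDs named in the rule was left out, and 1 of them would otherwise have been a member.

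Cyclic AMP is the second messenger that binds the regulatory subunits of protein kinase A and frees its catalytic subunits. Freed catalytic subunits phosphorylate proteins at the membrane and the cytoskeleton, and in the nucleus the factor CREB, which raises transcription from promoters with a cyclic AMP response element. In kidney epithelium the pathway is best known for the response to vasopressin, which brings water channels to the apical membrane of the collecting duct. The title of the series concerns a biphasic response of protein kinase A. The counts used here hold no measure of cyclic AMP or of protein kinase A, so a link of the members to that response was not tested.

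Parental MDCKI cells, which carry no bPAC, and the line with bPAC were plated in medium with 0.5% serum and 16 h later spent 2 h in the dark, in a low or in a high light dose. Parental cells gave 3 libraries in the dark, 3 at the low and 2 at the high dose. The bPAC line gave 3, 4 and 3. Depth lay between 2638511 and 9610144 gene reads per library. The labels do not say whether the bPAC line is 1 clone, whether replicates came from separate cultures, or how strong a dose was, so p-values cover the spread between these libraries alone, and that spread may be technical.

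Genes are listed by Ensembl ID only, and the files hold no gene names. None of the 171 IDs matched the reference table of dog genes (0 matches), so the members are described by ID and by level, with no function attached. For the same reason the cells could not be checked against epithelial markers, and 8 gene lists of cyclic AMP signalling, junctions, transport, cell cycle and stress could not be used.

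In bPAC cells the members had a median L of 1.03 in low light, a ratio of 2.04, with values from 0.80 to 1.75. In high light their median L was 0.09. These values chose the members and are a description only. Of the 566 genes at the level with a low light L of 0.8 or more, 369 stayed above 0.3 in high light and 26 lay below -0.3, so the members were the smaller share that came back near the dark level. At the edges of the rule, the last 5 members inside had a low light L of 0.802 to 0.807, and the first 5 genes outside 0.784 to 0.794. In high light the last 5 inside had an L of 0.292 to 0.296 in size, and the first 5 outside 0.302 to 0.305. The last 5 inside on the level stood at 10.1 to 10.5 CPM, and the first 5 outside at 9.51 to 9.72 CPM.

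**Figure D1:**
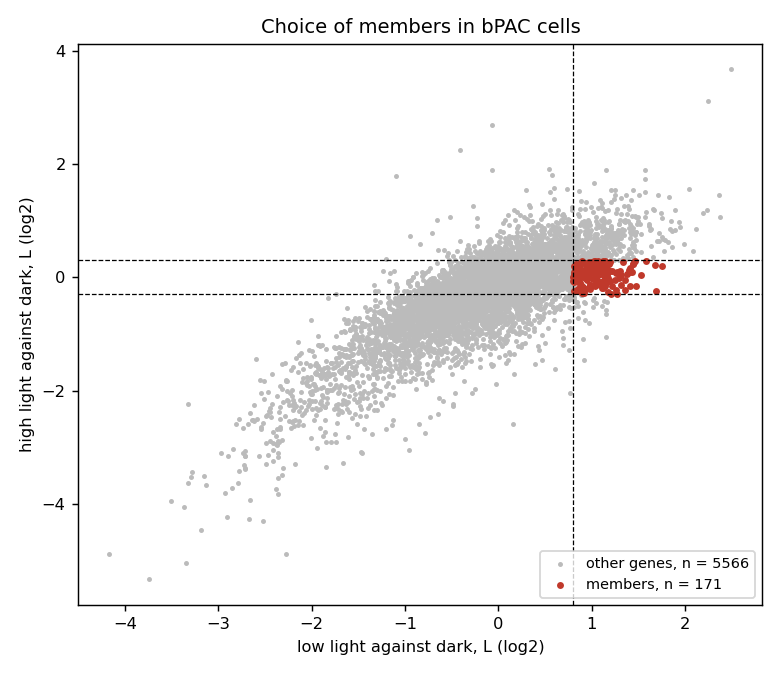
Low light against high light in bPAC cells for 5737 genes with a bPAC group mean of at least 10 CPM, each axis showing L against the dark libraries on the log2 scale. Dashed lines mark the limits of the rule, and the 171 members (red) lie to the right of 0.8 and between -0.3 and 0.3 in high light.

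The return to the dark level depended on how libraries were scaled. With CPM, the median L of all 5737 genes was -0.23 in bPAC high light and -0.09 in bPAC low light. With TMM scaling, which assumes that most genes do not change, these medians were 0.07 and 0.02. The members' median in high light was 0.09 with CPM and 0.38 with TMM. Relative to the median of all genes, the members stood 1.12 higher in low light and 0.32 higher in high light with CPM, and 1.13 and 0.31 higher with TMM. Applied to TMM-scaled CPM, the rule chose 110 genes, of which 54 were among the 171 (31.6% of the 171 and 49.1% of the 110). Scaling multiplies all genes of a library by the same factor, so these distances from the median of all genes could hardly change. The rule also used these libraries, so the distances are a description only. What changed with scaling was the list of genes that count as back at the dark level.

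The members spanned a wide range of abundance. Their mean in bPAC low light ran from 10.1 to 3476 CPM with a median of 33.5 CPM, and in bPAC dark libraries from 3.97 to 1958 CPM with a median of 15.5 CPM. In low light 49 members were below 20 CPM, 64 between 20 and 50 CPM, 29 between 50 and 100 CPM, 23 between 100 and 500 CPM, and 6 above 500 CPM. As a share of all gene reads, the members took 1.14%, 0.777% and 0.917% in the 3 bPAC dark libraries. In bPAC low light libraries 1 to 4 they took 1.99%, 1.69%, 1.88% and 2.32%, and in the 3 high light libraries 0.941%, 1.08% and 1.09%. Every low light library lay above every dark and high light library in this share. As the rule chose the members from these libraries, this is a description only.

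The bPAC libraries of a group were not alike. Relative to the mean of the dark libraries, the median member stood at 0.32 in bPAC dark 1 and at -0.28 and -0.22 in dark 2 and 3 (log2). In the 4 low light libraries it stood at 1.12, 0.81, 0.91 and 1.22, and in the 3 high light libraries at -0.04, 0.11 and 0.11. Low light libraries 1 and 4 held the highest value of 63 and 89 members, and libraries 2 and 3 that of 7 and 12. Chosen without libraries 1 and 4, the rule gave 127 genes, 109 of them among the 171. Without libraries 2 and 3 it gave 248, with 166 among the 171. These pairs follow the order of the members' values in libraries that the rule used. A smaller set without the high pair and a larger one without the low pair are thus a description only. Without bPAC dark 1 it gave 148 genes, of which 88 were among the 171. For 141 members all 4 low light libraries lay above all 6 other bPAC libraries, against 7.90% of the 8530 genes tested in the model; as the rule used these values, this is no separate evidence.

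**Figure D2:**
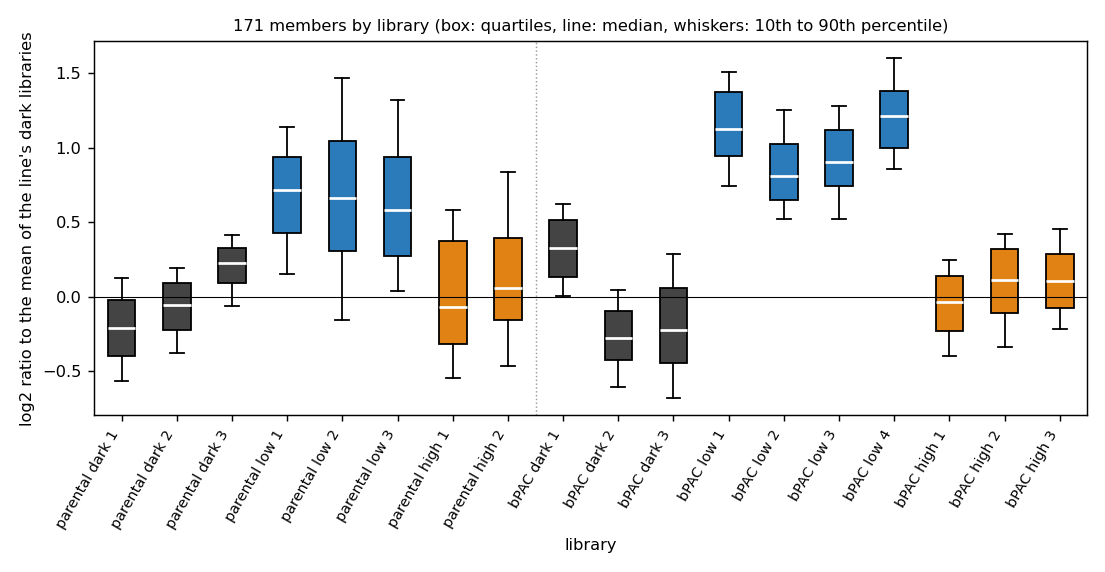
The 171 members in each of 18 libraries, as the log2 ratio to the mean of the dark libraries of the same line; boxes show quartiles, white lines medians, whiskers the 10th and 90th percentile, and colours dark (grey), low light (blue) and high light (orange). The medians of the 3 parental low light libraries (0.58 to 0.72) lie above those of the parental dark (-0.21 to 0.23) and high light libraries (-0.07 and 0.06), as the bPAC low light medians (0.81 to 1.22) lie above the other bPAC ones. The bPAC libraries chose the members, so the order of the bPAC medians is a description only.

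The 2 members with the largest low light L among those without overlap show the shape. ENSCAFG00000023139 stood at 25.9, 12.5 and 7.97 CPM in the dark, at 67.3, 50.7, 37.8 and 61.9 CPM in low light, and at 18.5, 21.7 and 13.3 CPM in high light of bPAC cells. All 4 low light libraries lay above bPAC dark 1, the highest of the dark ones. ENSCAFG00000020032 stood at 8.46, 3.92 and 6.87 CPM in the dark, 23.4, 14.003, 21.2 and 32.5 CPM in low light, and 6.15, 9.54 and 7.20 CPM in high light. In parental cells the same pair was higher in low light than in the dark. ENSCAFG00000023139 went from 14.3, 12.1 and 16.7 CPM to 41.4, 55.3 and 42.0 CPM (log2 fold change 1.74, SE 0.34, edgeR adjusted p = 0.00321) and stood at 20.6 and 17.5 CPM in parental high light. ENSCAFG00000020032 went from 7.39, 8.77 and 13.3 CPM to 26.3, 24.3 and 34.8 CPM (log2 fold change 1.60, SE 0.33, edgeR adjusted p = 0.00543), with 10.8 and 15.7 CPM in parental high light. For both, the 3 parental low light libraries lay above all 5 other parental libraries.

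The most abundant member with no overlap differed in its level between the lines. ENSCAFG00000003833 stood at 2216, 1845 and 1812 CPM in bPAC dark, at 4064, 3181, 3031 and 3628 CPM in bPAC low light, and at 2146, 2508 and 2213 CPM in bPAC high light. In parental cells it stood at 1014, 699.8 and 849 CPM in the dark, at 1727, 1851 and 1775 CPM in low light (log2 fold change 1.11, SE 0.18, edgeR adjusted p = 0.000897), and at 1108 and 1272 CPM in high light. Each of its parental groups lay below the bPAC group of the same dose, and in both lines low light was apart from the dark and high light. The next, ENSCAFG00000028879, stood at 900.5, 514 and 943 CPM in bPAC dark, 1409, 1341, 2159 and 2925 CPM in bPAC low light, and 636, 804 and 999.8 CPM in bPAC high light. Its parental values were 930, 692 and 1053 CPM in the dark, 1923, 2158 and 1884 CPM in low light (log2 fold change 1.21, SE 0.29, edgeR adjusted p = 0.0141), and 853 and 1151 CPM in high light, so the lines overlapped at every dose. It was no longer called without parental dark replicate 2 (adjusted p = 0.0980) or parental low light replicate 2 (0.0707), while its adjusted p lay between 2.27e-06 and 0.0359 under the other alternatives.

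With the model of all 18 libraries, 170 of the 171 members were called higher in bPAC low light than in the dark (background 17.2% of 8530 genes), 76 lower in high than in low light (background 5.03%), and 2 higher in high light than in the dark (background 12.7%). The rule used these contrasts, so nothing is read from the counts. The 3 genes that stand out here were picked after their values were seen. ENSCAFG00000005294 was the member not called in low light (edgeR adjusted p = 0.161), with 75.7, 44.2 and 164 CPM in bPAC dark and 109, 102, 301 and 190 CPM in low light, where the groups overlap. ENSCAFG00000003833 and ENSCAFG00000008608 were the members called higher in high light than in the dark, with log2 fold changes of 0.55 and 0.61 (edgeR adjusted p = 0.0308 and 0.0378), on the TMM scale of the model.

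Parental libraries played no part in the choice of members, and they showed the same direction in low light. Of the 171 members 162 had a parental low light L above 0 (94.7%), against 45.6% of all 5737 genes at the level. The members' median L was 0.66, a ratio of 1.58, against -0.06 for all genes at the level. Called higher in parental low light were 64 of the 171 members, 37.4%, against a background of 6.76% of the 8530 tested genes and 8.61% of those at the level. Called lower were 0 of the 171, against a background of 4.68%. An unadjusted edgeR p under 0.05 in that direction was found for 0 of them (background 14.2%), and in the other direction for 109 (background 14.2%). DESeq2 and limma-voom also called 0 lower (backgrounds 6.80% and 5.02%). Over all 5737 genes at the level, the low light L of bPAC and of parental cells correlated at r = 0.80 (Spearman's rho 0.78), across genes that are not independent replicates and between lines with no library in common. A like direction in both lines was thus a feature of the whole table. Within the 171 members r was 0.31 (rho 0.27), over a range of bPAC values that the rule cut short.

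The count of 64 changed with single libraries. Leaving out parental dark replicate 2 gave 31, and leaving out parental low light replicate 2 gave 32. The count lay between 47 and 72 without any of the other 16 libraries. Across these fits the number of all genes called, in either direction, also changed and lay between 242 and 1248. A lower count is thus not read as a property of the members. DESeq2 called 73 members higher, 42.7% against 7.50% of the tested genes, and limma-voom 75, 43.9% against 7.53%. Of the 54 members that were also chosen with TMM-scaled CPM, 14 were called higher in parental low light (background 6.76% of the tested genes). All 3 parental low light libraries lay above all 3 dark ones for 101 members (59.1%), against 15.7% of the tested genes, and all 3 lay below for 0 members, against 17.8%.

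**Figure D3:**
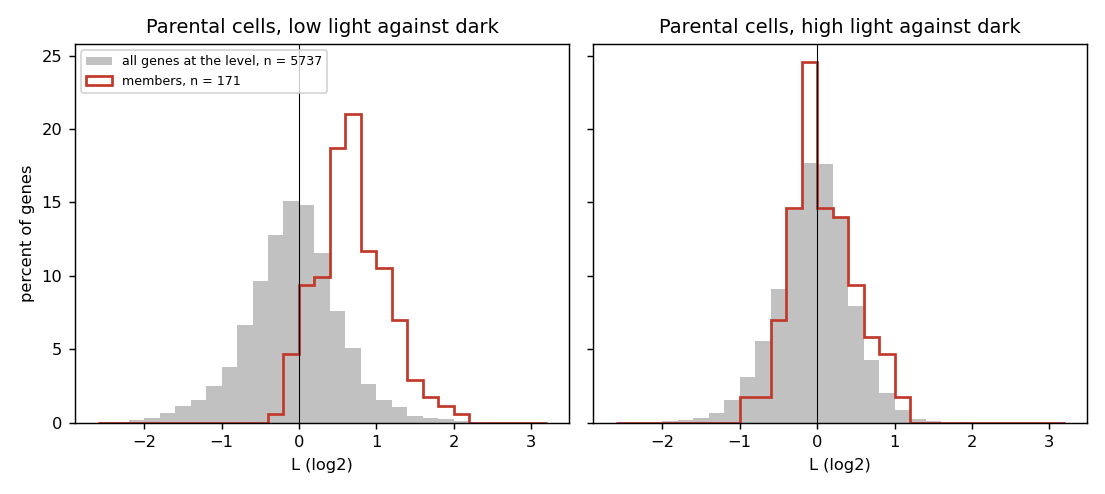
Share of genes (percent) by L in parental cells, low light against dark on the left and high light against dark on the right, for the 171 members (red outline) and all 5737 genes at the level (grey). The members are shifted to the right in low light (median 0.66 against -0.06) while the medians lie close in high light (0.00 against -0.03).

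Of the read shares that follow, only that of reads between overlapping genes, a small one, separated all the parental groups. Reads that could not be assigned between overlapping genes were 0.0329 to 0.0404 per 100 gene reads in parental dark, 0.0528 to 0.0605 in low light and 0.0451 to 0.0515 in high light libraries, with no overlap between the groups. In bPAC cells they were 0.0352 to 0.0411, 0.0475 to 0.0581 and 0.0437 to 0.0584. Reads outside annotated genes were 27.5% to 27.9% of the total in parental dark, 28.3% to 29.6% in low light and 26.4% to 28.9% in high light. In bPAC cells this share was 27.6% to 28.2% in the dark, 27.5% to 29.5% in low light and 25.1% to 26.4% in high light. Multi-mapped reads, which align to several places, were 39.6% to 40.4%, 39.7% to 42.0% and 38.9% to 44.2% of the total in parental dark, low and high light, and 38.5% to 39.9%, 37.5% to 40.7% and 41.7% to 44.4% in bPAC cells. The 3 bPAC high light libraries thus stood apart from the other bPAC libraries in both shares. The part of these shares in the members' values, the return near the dark level in bPAC high light included, was not tested.

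The 2 members with the smallest adjusted p in parental low light had a larger low light L in parental than in bPAC cells, 2.03 against 1.46 and 1.73 against 1.17. ENSCAFG00000012845 went from 8.53, 6.95 and 8.22 CPM in parental dark to 28.4, 43.7 and 33.7 CPM in low light (log2 fold change 2.19, SE 0.26, edgeR adjusted p = 9.45e-05), with 11.0 and 18.5 CPM in high light. Its bPAC values were 7.78, 4.64 and 6.04 CPM in the dark, 19.4, 17.6, 17.1 and 20.6 CPM in low light, and 7.13, 9.32 and 6.82 CPM in high light. ENSCAFG00000031996 went from 17.4, 16.3 and 19.1 CPM in parental dark to 52.4, 78.3 and 51.7 CPM in low light (log2 fold change 1.84, SE 0.23, edgeR adjusted p = 0.00012). It stood at 30.6 and 36.7 CPM in parental high light, above every parental dark library and below every low light one. ENSCAFG00000012845 also had the largest parental low light L of all members, 2.03, followed by ENSCAFG00000001597, which went from 10.8, 8.77 and 10.9 CPM to 38.8, 53.0 and 36.5 CPM (log2 fold change 2.11, SE 0.30, edgeR adjusted p = 0.000311). Whether these changes differ between the lines was not tested. The bPAC side of that difference chose the members, and the parental side chose these genes among them. Over all members the median low light L was 0.66 in parental and 1.03 in bPAC cells, the latter held up by the rule.

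Members called in parental low light were found at all levels of abundance. They were 9 of the 49 members below 20 CPM in bPAC low light, 23 of 64 between 20 and 50 CPM, 13 of 29 between 50 and 100 CPM, 15 of 23 between 100 and 500 CPM and 4 of the 6 above 500 CPM. Of all genes at the level in the same classes, the share called higher was 2.43%, 7.86%, 11.3% and 13.7%, and 60 of 300 in the last class, so calls were more frequent among abundant genes in the whole table. The median parental low light L of these classes was 0.51, 0.66, 0.66, 0.88 and 1.05. At a given depth a gene with few reads has a larger counting error, and a member that was not called is not shown to be unchanged.

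By size of the parental low light change the members fell into 3 classes. An L of at least 0.8, the limit used for bPAC cells, was reached by 61 members (35.7%, against 6.50% of genes at the level), and 55 of these were called. Another 77 had an L from 0.3 to 0.8 (45%, against 18% of genes at the level), of which 9 were called. An L between -0.3 and 0.3 was found for 33 (19.3%, against 43.2% of genes at the level), of which 0 were called. Calls and classes rest on the same parental libraries, so the order of the counts called is a description only. No member had an L of -0.3 or less (0 of 171, against 32.4%). The median bPAC low light L of these classes was 1.10, 1.04 and 0.94. The classes also differed in the dark. The parental dark mean lay above the bPAC dark mean for 26 of the 61, 63 of the 77 and 31 of the 33 members. Among all members this held for 120 (70.2%, against 52.7% of genes at the level). The rule used the bPAC dark values and the classes used the parental ones, so this is a description only.

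**Figure D4:**
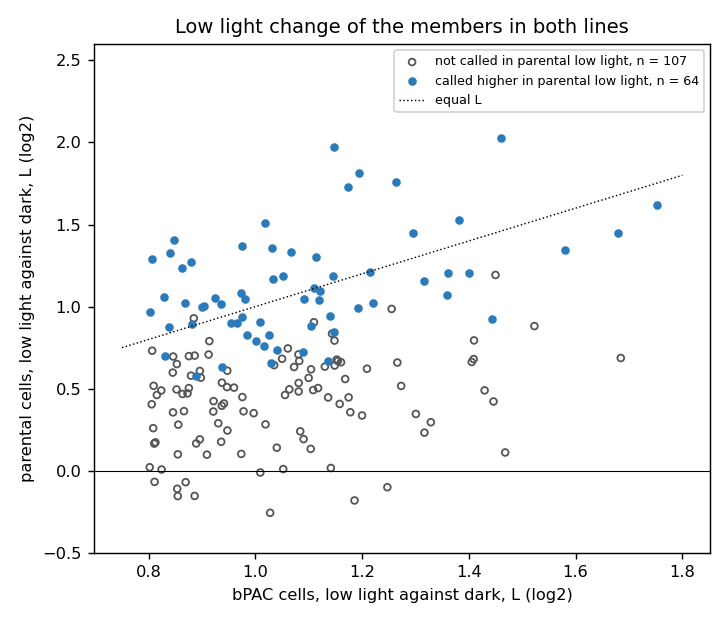
Low light against dark in bPAC cells (x axis) and in parental cells (y axis) for the 171 members, as L on the log2 scale; filled points are the 64 members called higher in parental low light (edgeR, adjusted p under 0.05) and the dotted line marks equal L. All but 9 members lie above 0 on the parental axis, and the parental L runs from -0.26 to 2.03.

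The 2 members with the lowest parental low light L, which also had the smallest p among members with a negative fold change, were not called. ENSCAFG00000031081 stood at 56.0, 64.7 and 68.7 CPM in parental dark, 67.4, 47.3 and 51.9 CPM in low light and 52.4 and 28.7 CPM in high light. Dark and low light overlapped (log2 fold change in low light -0.12, SE 0.24, edgeR adjusted p = 0.788). Both high light libraries lay below all dark ones, and high light against dark was not called (edgeR adjusted p = 0.353). In bPAC cells it stood at 23.3, 17.8 and 16.8 CPM in the dark, 57.9, 37.1, 38.9 and 46.8 CPM in low light and 19.9, 22.4 and 26.9 CPM in high light. Of its bPAC low light libraries only library 1 reached the range of the parental dark libraries, and the others lay below it. ENSCAFG00000012574 stood at 14.6, 25.1 and 29.0 CPM in parental dark and 24.8, 14.6 and 17.5 CPM in low light (log2 fold change -0.19, SE 0.33, edgeR adjusted p = 0.748). Its bPAC values were 15.6, 6.78 and 6.87 CPM in the dark and 21.7, 14.4, 21.8 and 25.6 CPM in low light, where bPAC dark 1 lay above low light 2.

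At the high dose the median member lay near the dark level in parental cells, with a smaller share on the lower side than among all genes at the level. The median L against the dark was 0.00, against -0.03 for all genes at the level, and 86 members lay above 0 (50.3%, against 47.2%). With TMM scaling these medians were 0.06 and 0.03. An L within 0.3 of the dark, the limit used for bPAC cells, was found for 92 members (53.8%, against 51.0% of genes at the level), 53 lay above it (31.0%, against 21.8%) and 26 below (15.2%, against 27.2%). Both high light libraries lay below all 3 dark ones for 16 members (9.36%, against 18.1% of the tested genes). None was called in either direction (edgeR, 0 higher and 0 lower, backgrounds 0.141% and 0.0352% of 8530 genes). At an unadjusted edgeR p under 0.05 there were 27 higher and 2 lower (backgrounds 8.12% and 6.93%). With limma-voom 0 were called, and DESeq2 called 6 higher (3.51%, against 1.38% of 6545 genes). The comparison rests on 2 high light libraries.

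The 2 members with the smallest p on the higher side did not pass the threshold with edgeR. ENSCAFG00000019884 stood at 65.7, 57.7 and 83.5 CPM in parental dark, 138, 142 and 189 CPM in low light and 118 and 158 CPM in high light (log2 fold change of high light against dark 1.05, SE 0.23, edgeR adjusted p = 0.0632). ENSCAFG00000012175 stood at 56.6, 35.1 and 56.4 CPM in the dark, 109, 138 and 137 CPM in low light and 93.8 and 97.9 CPM in high light (log2 fold change 1.00, SE 0.25, edgeR adjusted p = 0.0874). In both the parental high light libraries lay above all dark ones. In bPAC cells the rule itself held high light near the dark in CPM. For ENSCAFG00000019884 the values were 62.9, 80.7 and 64.8 CPM against 65.9, 46.4 and 66.5 CPM. On the TMM scale of the model the bPAC log2 fold changes of high light against dark were 0.55 and 0.61 (edgeR adjusted p = 0.0708 and 0.0563). A difference between the lines is thus not read from these genes. In parental high light DESeq2 called both genes higher than in the dark (adjusted p = 0.0112 and 0.0241), as did the fits with no filter and with 1 surrogate variable. There ENSCAFG00000019884 was also called without bPAC low light replicate 4 (edgeR adjusted p = 0.0488). On the lower side the smallest p belonged to ENSCAFG00000001315, at 17.5, 24.8 and 32.2 CPM in the dark and 13.0 and 12.2 CPM in high light (edgeR adjusted p = 0.250), and ENSCAFG00000008668, at 16.3, 33.9 and 34.3 CPM and 14.04 and 15.5 CPM (edgeR adjusted p = 0.276). Both had their parental high light libraries below all dark ones and were not called.

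Of the 171 members, 162 were lower in parental high than in parental low light (94.7%, against 45.7% of genes at the level), with a median change of -0.63 against 0.05. Both high light libraries lay below all 3 low light ones for 124 members (72.5%, against 18.2% of the tested genes), and above them for 1 member (0.585%, against 16.2%). With edgeR 0 members were called lower and 0 higher (backgrounds 0% and 0.0117% of 8530 genes). At an unadjusted edgeR p under 0.05 there were 87 lower and 1 higher (backgrounds 7.77% and 4.89%). With limma-voom 0 were called, and DESeq2 called 6 lower (3.51%, against 0.517% of 6380 genes). This comparison shares the 3 low light libraries with that of low light and dark, so values that are high in those libraries enter both.

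The smallest p among members that were lower belonged to ENSCAFG00000020101, at 115, 118 and 131 CPM in parental dark, 264, 286 and 284 CPM in low light and 75.5 and 149 CPM in high light (log2 fold change of high against low light -1.32, SE 0.26, edgeR adjusted p = 0.159). It was followed by ENSCAFG00000010796, at 32.8, 28.4 and 29.8 CPM, 63.3, 84.5 and 80.5 CPM, and 27.8 and 41.5 CPM (log2 fold change -1.14, SE 0.24, edgeR adjusted p = 0.159). DESeq2 called both (adjusted p = 0.00646 and 0.00898), and edgeR called ENSCAFG00000020101 with no filter (0.00109) and without bPAC low light replicate 4 (0.0350). ENSCAFG00000020101 in bPAC cells followed a like course, at 124, 103 and 128 CPM in the dark, 256, 199, 244 and 353 CPM in low light and 110, 136 and 155 CPM in high light. On the opposite side, ENSCAFG00000031217 stood at 7.91, 10.3 and 11.9 CPM in parental dark, 9.47, 9.88 and 14.1 CPM in low light and 17.3 and 20.7 CPM in high light, not called (edgeR adjusted p = 0.343). Its bPAC low light libraries lay in pairs, at 19.6 and 20.4 CPM in libraries 1 and 2 and 9.004 and 9.80 CPM in libraries 3 and 4. ENSCAFG00000015427 came next at 14.5, 15.4 and 18.9 CPM in parental low light and 18.1 and 19.98 CPM in high light (edgeR adjusted p = 0.753), where the groups overlap.

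**Figure D5:**
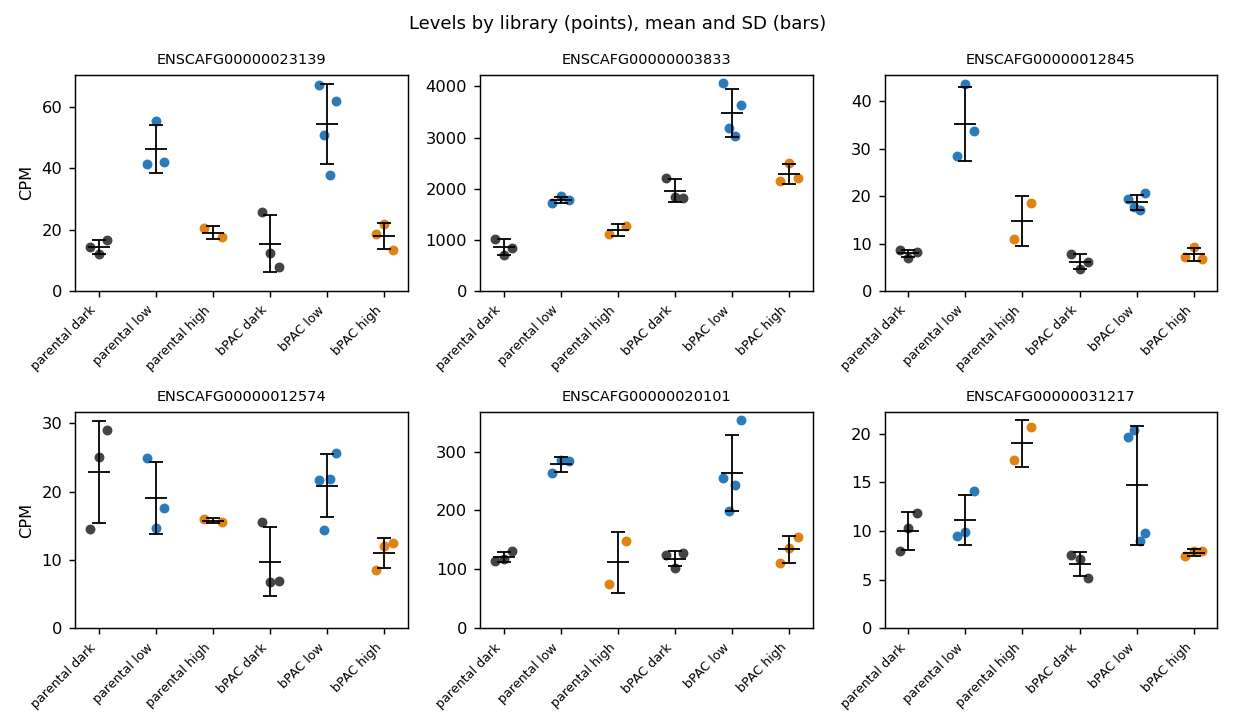
Level in CPM of 6 members in each library of the 6 groups (points: dark grey, low light blue, high light orange), with mean and SD (bars). The first 3 and ENSCAFG00000020101 are highest in low light in both lines, whereas ENSCAFG00000012574 overlaps between parental dark and low light and ENSCAFG00000031217 is highest in parental high light.

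A peak at low light was also found in parental libraries. For 86 members (50.3%, against 8.38% of the tested genes) all 3 parental low light libraries lay above all dark and high light ones. The full rule, applied to parental libraries in place of bPAC ones, was met by 17 of the 158 members that reached 10 CPM in a parental group (10.8%, against 1.33% of 5657 such genes). Without 1 library it was met by 12 to 28 members, with 26 without parental dark replicate 2 and 28 without replicate 3. The share of all genes in these settings is not given here, so nothing is read from these changes.

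The nearest comparison is with the 369 genes of like low light L in bPAC cells whose high light L stayed above 0.3. Their median L in bPAC cells was 1.13 in low and 0.70 in high light, against 1.03 and 0.09 for the members. In parental cells, which chose neither set, the 369 genes had a median L of 0.82 in low and 0.45 in high light, against 0.66 and 0.00 for the members. In parental high light 84.8% of the 369 genes and 50.3% of the members lay above the dark mean. Both high light libraries lay above all 3 dark ones for 186 of the 369 (50.4%) and for 39 of the 171 members (22.8%), against 13.9% of the tested genes. A low light peak without overlap was found for 173 of the 369 (46.9%) and for 86 of the 171 (50.3%). Called higher in parental low light were 210 of the 369 (56.9%). These counts and medians describe the 2 sets, and the difference between them was not tested.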

How the data were processed

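Libraries were made with Lexogen's QuantSeq 3' FWD kit after SPLIT extraction, per the labels' protocols, and read from the 3' end, so a count does not scale with gene length. The authors deposited whole-number read counts per gene and library, not normalised. Per the submitters' processing notes, reads were set against CanFam3.1. Not given in the sources used here are the aligner, counter, annotation and use of strand, so overlapping, antisense and near-identical genes are uncertain. The 5 rows without a gene were left out of totals and tests.

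The rule used CPM of gene reads with a pseudocount of 1 in L. The "largest group mean" was taken over bPAC groups, so that parental values played no part. Counts of all 18 libraries entered 1 model of 6 groups in edgeR 4.0.16 (R 4.3.3): filterByExpr with a minimum count of 10, which kept 8530 genes with all 171 members, TMM, glmQLFit (robust), glmQLFTest, and Benjamini-Hochberg adjustment over the 8530 genes at 0.05. SE is the absolute log2 fold change over the square root of F. Each of 19 pairs of libraries within a group differed by more than sampling noise (chi-square over degrees of freedom 9.41 to 72.7). The script was tested on simulated data. Alternatives used DESeq2 1.42.0, limma 3.58.1 and sva 3.50.0.

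Members and lists were chosen with earlier results of these data known. Named genes were, 2 per item, the largest low light L and highest level in bPAC cells without overlap, the smallest p per direction in each parental contrast, and the largest and smallest parental low light L.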

Additional observations from a re-analysis of the deposited data

How the results depend on the processing

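No named member changed sign in the contrast that named it. Without 1 bPAC library the rule chose 148 to 197 genes. It chose 110 with TMM-scaled CPM and 108 with DESeq2's size factors. A high light limit of 0.2 gave 113 and a low light limit of 1 gave 95. Called higher in parental low light were 27 of the 110, 27 of the 108, 37 of the 113 and 40 of the 95. For the 171 members it was 64, and the background was 6.76% of 8530 genes. As the sets differ in size, a smaller count is not always a smaller share. The rule chose 178 with the level taken over all 6 groups, a setting added after the data were seen. Another added setting, CPM without the IDs left out, gave 182. In parental low light 31 to 72 members (of 242 to 1248 genes) were called without 1 library, and 14 among the 54 members also chosen with TMM scaling, also added. In parental high light against dark the 15 genes called became 7 with DESeq2's size factors, 135 with DESeq2, 5 with limma-voom, 227 with no filter, 6 with a mean of 5 CPM, 2 with only parental groups and 77 with 1 surrogate variable, and 2 to 37 without 1 library. Members called higher were 6 with DESeq2, 4 with no filter, 2 with 1 surrogate variable and 0 to 1 without 1 library. Between high and low light the 1 gene called became 43 with DESeq2 and 52 with no filter, each with 6 members lower, and 0 to 3 without 1 library, with 0 to 1 members lower. The members' median parental low light L was 0.66. It was 0.51 and 0.50 for members chosen with TMM-scaled CPM and with DESeq2's size factors. With a pseudocount of 5 it was 0.55, but 0.72 for the members chosen anew with that pseudocount. For members chosen without bPAC low light libraries 2 and 3 it was 0.57. Without 1 parental library it was 0.56 to 0.78, and the high light median was -0.12 to 0.13. The same peak rule in parental cells was met by 12 to 28 members without 1 library. The cause of these changes was not tested. No paired analysis was possible because the labels give no replicate numbers shared between groups.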
